A study of Rattus norvegicus with 4 samples.

Results

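Lymphocyte-rich microRNAs (miRNAs) were followed in male rats, in RNA of serum exosomes (small secreted vesicles), across stages labelled hepatocellular carcinoma (HCC) and in rats without injection. The members were chosen by name: rno-miR-150-5p and rno-miR-150-3p, the 2 arms of miR-150, with rno-miR-342-3p, rno-miR-181a-5p, rno-miR-181b-5p and rno-miR-181c-5p. They are 6 of the 719 rat miRNAs on the array, all found under these names, and the species prefix is left off below. Per the labels, serum was taken from naive rats (day 0, no injection), and after injection from rats labelled light (day 35), moderate (day 49) and severe (day 49). The labels' treatment protocol has an HCC cell line injected, whereas the design text has HCC exosomes given once to "baffolo" rats, and this difference was not resolved. The labels name neither the line, nor the strain beyond that word, nor the criteria for light, moderate and severe, and they do not say that lymphocytes were removed from the host.

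Each group was represented by 1 array, all 4 on 1 slide with 1 scan time. The design text speaks of independent experiments with different rats at each time, but here a group has 1 array, and nothing in the labels tells if RNA of several rats was pooled on it. There is thus no error between rats and no p-value, and every difference below is a difference between 2 arrays. Errors written with ± come from repeated spots within an array (standard errors) and so cover spot noise only. Less RNA from lymphocytes in serum and less of a miRNA per vesicle cannot be told apart in these bulk samples, and severity and day cannot be told apart against naive. The scanner software detected 122 to 176 miRNAs per array, and the summed signal of detected miRNAs on the light, moderate and severe arrays was 0.643, 1.58 and 0.694 times that of the naive array.

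A miRNA is cut from a hairpin precursor whose 2 arms can each give a mature strand, and the loaded strand pairs with messenger RNAs mainly through its seed, bases 2 to 8. miR-150-5p is abundant in mature B and T lymphocytes and in mice limits the transcription factor c-Myb, while miR-150-3p is the opposite strand of that hairpin. miR-342-3p is made from an intron of Evl and is found in lymphoid cells. The miR-181 family is high in developing lymphocytes, and in mice miR-181a-5p raises T cell receptor sensitivity by lowering phosphatases. The family is also expressed outside the blood, so it marks lymphocytes less strictly than miR-150-5p.

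The mature sequences of miR-342-3p and of the miR-181 family are shown because the family members are near-identical, which limits how well hybridisation can separate them. They are from RefSeq (GRCr8), which matched 4 of the 6 members, and are written 5′ to 3′ with the seed in capitals. miR-181d-5p is not a member and is given as the remaining miRNA of that seed.
miR-342-3p: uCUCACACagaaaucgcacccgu
miR-181a-5p: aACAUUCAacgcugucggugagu
miR-181b-5p: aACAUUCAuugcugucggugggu
miR-181c-5p: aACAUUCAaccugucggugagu
miR-181d-5p: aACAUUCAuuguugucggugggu

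On GRCr8, miR-342-3p lies at chr6:133329715-133329737 on the plus strand, within the protein-coding gene Evl. miR-181a-5p is encoded at chr3:43025601-43025623, within Nr6a1, and again at chr13:52037081-52037103, where miR-181b-5p follows at chr13:52037263-52037285. The RefSeq entries used held no other place for miR-181b-5p, although the array carries 3p arms of both miR-181b-1 and miR-181b-2, so its places may be incomplete. miR-181c-5p and miR-181d-5p neighbour each other at chr19:40888314-40888335 and chr19:40888484-40888506, and no protein-coding gene of the annotation spans them. The 4 miR-181 miRNAs share the seed and were the only entries of the RefSeq table with it. Counted from base 1 at the 5′ end, miR-181b-5p differs from miR-181a-5p by A9U, C10U and A21G, and miR-181d-5p differs from miR-181b-5p by C12U. miR-181c-5p is 1 edit away from miR-181a-5p and 4 edits away from miR-181b-5p. Values of single miR-181 members are therefore uncertain where 1 RNA could bind the probes of another.

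Each member had 2 probes of 10 spots. The value of a miRNA is the sum of its probe means in background-subtracted intensity units, and for differences it was scaled, before log2 was taken, to the 75th percentile that the 111 miRNAs detected everywhere reached on the same array. A miRNA was counted as measured where the scanner software detected it and its sum reached the floor of the array, 13.1 to 16.0 units. The floor is the lowest probe mean among probes for which a share of 0.5 or more of the spots was well above background. Where only 1 of 2 arrays measured a miRNA, the difference is a bound and is written as at least N-fold; it sets a sum over probes against a single-probe floor and is not strict.

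miR-150-5p was lower on the severe array than on each of the other 3 arrays. It read 502 ± 3.68 units in naive serum, 252 ± 2.53 in light, 486 ± 4.04 in moderate and 36.3 ± 1.33 in severe serum. The severe value is the low one, and the other 3 lie between 0.510 and 0.754 of their arrays' 75th percentiles, against 0.0875 on the severe array. As a share of all detected signal, which uses no percentile, miR-150-5p made up 0.0376% on the severe array against 0.361% for naive, 0.282% for light and 0.221% for moderate.

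After scaling, miR-150-5p was 8.62-fold lower on the severe array than on the naive array (log2 −3.11 ± 0.05), the second lowest of the 109 differences measured on both arrays. It was 5.82-fold lower on the severe than on the moderate array (log2 −2.54 ± 0.05) and 8.09-fold lower than on the light array (log2 −3.02 ± 0.05). With normexp, severe against moderate was −0.98, just within 2-fold. The moderate and light arrays lay at log2 −0.57 ± 0.02 and −0.09 ± 0.02 from naive. With spike-in scaling the sign for moderate turned (0.12), and light passed 2-fold (−1.002). Its brighter probe gave 439, 218, 419 and 35.9 units in the order naive, light, moderate, severe, and its dimmer probe gave 62.9, 34.3, 67.0 and 0.473 units. On the severe array 0 of 10 spots of the dimmer probe were well above background, so the value there rests on the brighter probe, which alone gave log2 −2.93 ± 0.05 against naive.

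miR-150-3p, the other arm, went the opposite way. It read 6.16 ± 1.07 and 4.49 ± 1.09 units in naive and light serum, where it was not detected, 19.5 ± 0.938 in moderate and 57.3 ± 1.01 in severe serum. The severe array is the high one, with 18 of 18 spots well above background, against 4 of 19 on the moderate array and 0 on the others. On the severe array miR-150-3p exceeded naive at least 5.87-fold and light at least 3.25-fold, and it was 6.76-fold higher than moderate (log2 2.76 ± 0.07). With normexp the lower bounds against naive and light were 0.91 and 0.30 on the log2 scale, and neither reached 2-fold. The difference from moderate was the second highest of 115 differences measured on both arrays. The moderate reading of 19.5 units lies near that array's floor of 13.1. Both probes were above their readings on every other array, at 37.1 and 20.2 units on the severe array, against 5.33 and 0.831 units on the naive array.

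No scaling factor acts on the contrast between the arms within the same 2 arrays. The log2 difference of miR-150-5p minus that of miR-150-3p was at most −5.66 for severe against naive, with miR-150-3p as a bound, and −5.30 ± 0.09 for severe against moderate. The contrast alone shows an unequal change of the 2 arms, and the opposite directions come from the differences of each arm given above. Such a split was not particular to miR-150. For severe against naive, miR-652-5p and miR-652-3p stood at log2 3.27 and −1.82, and miR-328a-5p and miR-328a-3p at 1.53 and −1.85. The arms let-7d-5p and let-7d-3p were both lower, at −1.69 and −1.22. The plot of single spots shows the miR-150 readings separately for each probe.

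**Figure D1:**
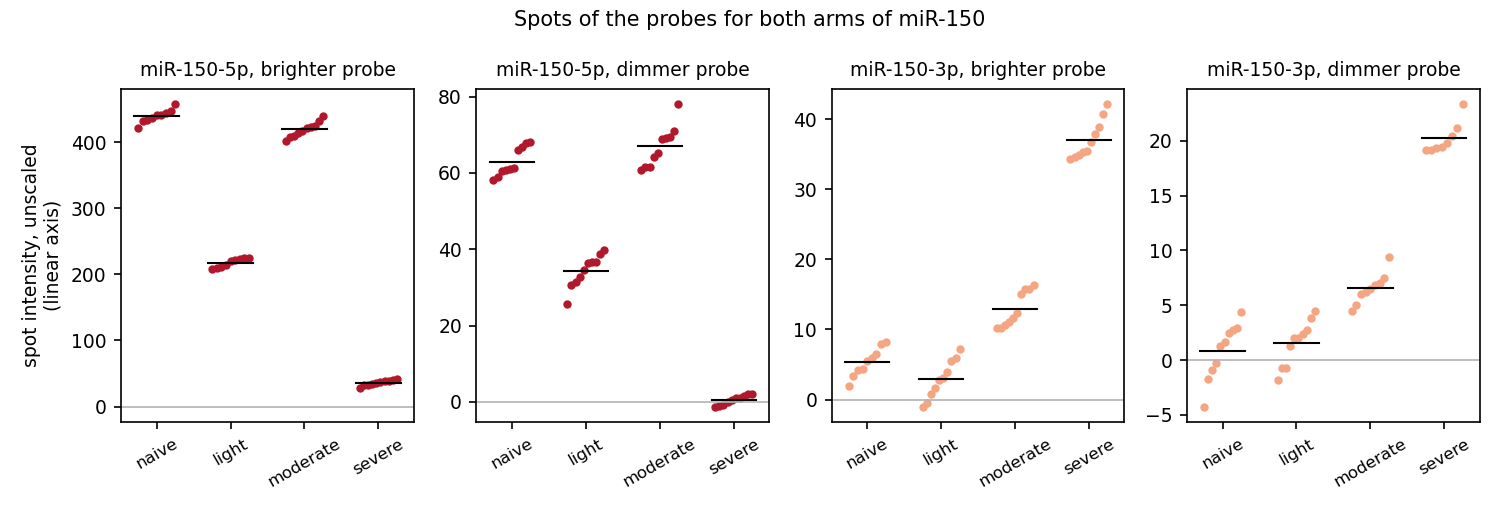
Unscaled intensity (linear axis, a scale of its own in each panel) of single spots, without outlier spots and sorted by value within an array, for the 2 probes of miR-150-5p and the 2 probes of miR-150-3p, arrays in the order naive, light, moderate, severe, with the mean as a black line. Both miR-150-5p probes are lowest on the severe array, at 35.9 and 0.473 units, and both miR-150-3p probes are highest there, at 37.1 and 20.2 units.

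miR-342-3p was also lowest on the severe array, with a smaller difference. It read 383 ± 5.12 units in naive serum, 237 ± 3.97 in light, 594 ± 8.13 in moderate and 94.9 ± 2.05 in severe serum. Scaled to the 75th percentile, the severe array stood at 0.229 and the naive, light and moderate arrays between 0.575 and 0.665. All 20 spots were well above background on each array, so its values rest on both probes throughout.

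On the severe array miR-342-3p was 2.52-fold lower than naive (log2 −1.33 ± 0.04), 2.73-fold lower than moderate (log2 −1.45 ± 0.04) and 2.91-fold lower than light (log2 −1.54 ± 0.04). With normexp these were −0.73, −0.76 and −0.94, all within 2-fold, and with spike-in scaling severe against light was −0.62. Its 2 probes gave log2 −1.29 ± 0.05 and −1.39 ± 0.05 for severe against naive. The moderate and light arrays lay at log2 0.12 ± 0.03 and 0.21 ± 0.03 from naive, and with median scaling both signs turned, to −0.03 and −0.13. miR-342-5p, from the other arm of this precursor, was not detected on any array, so no contrast of its arms could be made.

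The miR-181 members were dim, and none of the 3 was detected on the severe array. miR-181c-5p read 68.2 ± 0.952 units in naive serum, 38.9 ± 1.42 in light, 85.8 ± 1.48 in moderate and 4.53 ± 0.555 in severe serum. Its severe reading lies under that array's floor of 16.0 units, and the other 3 arrays lie above theirs. It was at least 2.65-fold lower on the severe array than on the naive array, at least 2.33-fold lower than on the moderate array and at least 2.84-fold lower than on the light array. The bound against naive did not reach 2-fold with normexp (log2 −0.13). Against moderate, 2-fold was not reached with quantile normalization (−0.49), the brightest probe (−0.70) or normexp. Against light, it was not reached with spike-in scaling (−0.59), normexp (−0.56) or the brightest probe (−0.76). The moderate and light arrays lay at log2 −0.19 ± 0.03 and 0.10 ± 0.06 from naive, and both signs turned without scaling, to 0.33 and −0.81.

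miR-181a-5p read 38.9 ± 1.03, 19.4 ± 0.765, 31.8 ± 1.39 and 1.65 ± 0.907 units in the order naive, light, moderate, severe. The severe array was at least 1.52-fold lower than naive, and without scaling this bound passed 2-fold (log2 −1.28). The moderate and light arrays lay at log2 −0.81 ± 0.07 and −0.10 ± 0.07 from naive. Under the other settings moderate ranged from −1.58 (quantile normalization) to −0.13 (spike-in scaling). Light ranged from −1.01 (spike-in scaling), past 2-fold, to 0.50 (normexp), where the sign turned. Only 1 of its 2 probes had any spot well above background on any array.

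miR-181b-5p, which in mice targets the antibody-diversifying enzyme AID in B cells, read 27.2 ± 1.29, 18.4 ± 1.22, 18.1 ± 1.05 and 9.60 ± 1.05 units in the same order. The moderate array was 2.15-fold lower than naive (log2 −1.11 ± 0.11), the lowest of the 126 differences measured on both arrays, and 2.73-fold lower than light (log2 −1.45 ± 0.13). On the moderate array 3 of 19 spots were well above background and on the light array 2 of 19, so these 2 differences are between readings near the floor. Only its brighter probe had any spot well above background on any array. That probe alone read 12.4 units on the moderate array and 13.5 on the light array, under their floors of 13.1 and 15.1. Only the sum over both probes reached these floors. The severe array gave a bound of only 1.06-fold below naive.

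On the severe array 0 of the 57 spots for miR-181a-5p, miR-181b-5p and miR-181c-5p were well above background. miR-181d-5p stayed detected there, at 27.5 ± 1.74 units against 88.2 ± 2.29 units on the naive array. After scaling it lay just short of 2-fold below naive (log2 −0.999 ± 0.10), and it was 2.52-fold lower on the severe than on the light array (log2 −1.34 ± 0.10). The 7 opposite-arm relatives of the members on the array, miR-342-5p and the 3p arms of miR-181a-1, miR-181a-2, miR-181b-1, miR-181b-2, miR-181c and miR-181d, were not detected on any array.

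**Figure D2:**
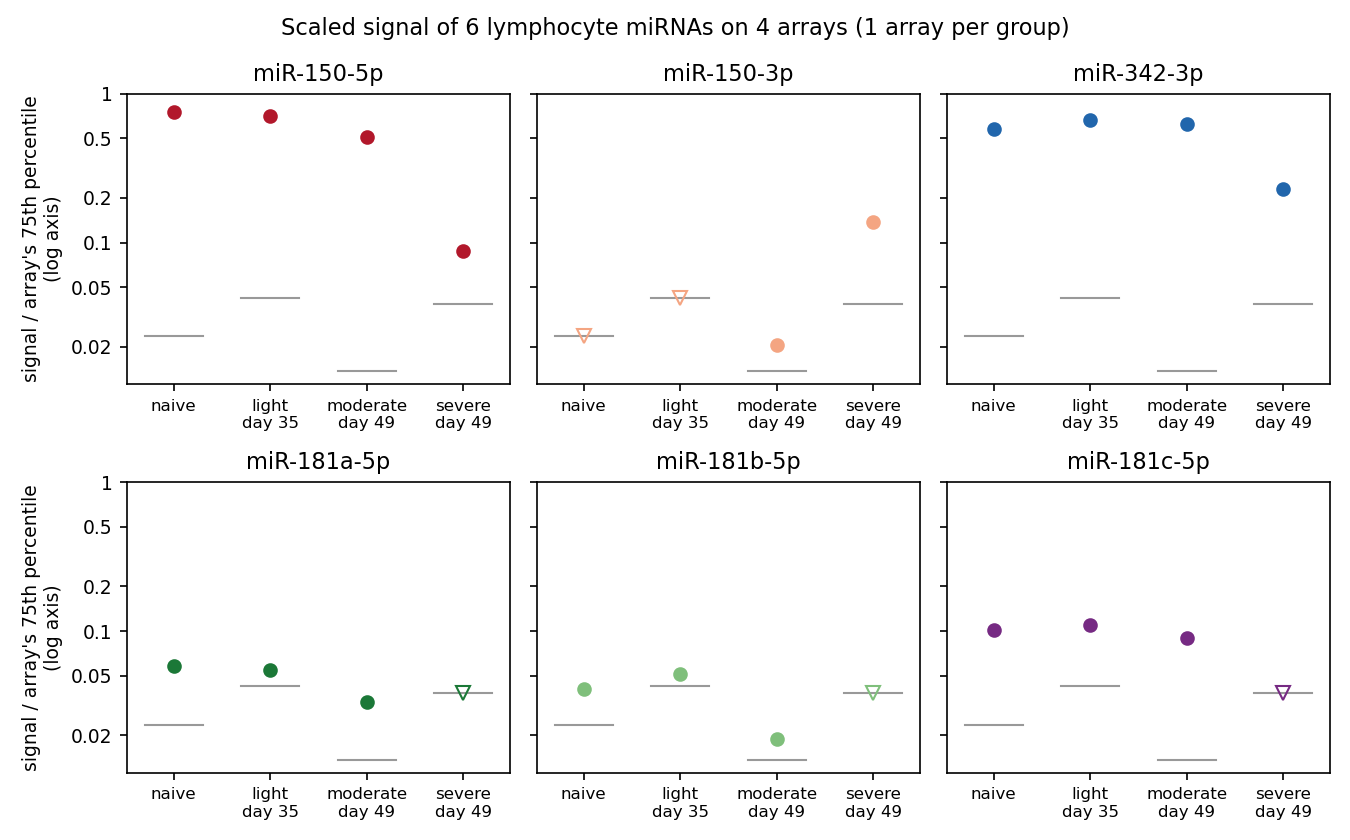
Signal divided by the array's 75th percentile (log axis) for the 6 members, with the 4 arrays from left to right in the order naive, light, moderate, severe. Filled points are measured values, open triangles stand at the floor where the miRNA was not measured, and grey lines are the floor of each array. miR-150-5p and miR-342-3p are lowest on the severe array at 0.0875 and 0.229, and miR-150-3p is highest there at 0.138.

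Counting bounds, 3 of the 6 members were at least 2-fold lower on the severe array than on the naive array (these were miR-342-3p, miR-150-5p and miR-181c-5p), and miR-150-3p was the 1 at least 2-fold higher. Over all 137 miRNAs measured on at least 1 of these arrays, 18.2% were at least 2-fold lower and 24.1% at least 2-fold higher, so large differences in both directions were common between these arrays. The 2 members measured on both arrays, miR-150-5p and miR-342-3p, had a median log2 difference of −2.22, beside −0.11 over all 109 miRNAs measured on both. This median leaves out miR-150-3p, which was higher, and the miR-181 members, which gave bounds only, so it does not describe the members as a set. With normexp background correction, which adds 50 units to each spot and so lowers folds by construction, 1 member was lower and 0 were higher.

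For moderate against naive, 1 of 6 members was at least 2-fold lower, miR-181b-5p, and 0 were higher, beside 1.2% and 5.42% of 166 miRNAs. The median over the 5 members measured on both arrays was −0.57, beside 0.22 over all 126. miR-181b-5p did not reach 2-fold without scaling, with spike-in scaling or with normexp, and miR-181a-5p also passed it with quantile normalization. For light against naive, 0 of 5 members passed 2-fold in either direction, beside 0.781% lower and 1.56% higher of 128 miRNAs, and the members' median was 0.10, beside 0.27 over all 117. The median of all miRNAs on the light array lay 0.63 below naive without scaling (log2), and 1 member without scaling and 2 with spike-in scaling were at least 2-fold lower there.

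The 2 arrays of day 49 share the day, but with 1 array each severity cannot be told apart from differences between rats, RNA preparations or arrays. For severe against moderate, 3 of 6 members were lower past that fold (miR-342-3p, miR-150-5p and miR-181c-5p) and 1 was higher (miR-150-3p), beside 17.8% lower and 17.8% higher of 169 miRNAs. The median over the 3 members measured on both arrays was −1.45, beside −0.41 over all 115. With normexp 0 members were lower. For severe against light, the members past 2-fold were again 3 lower and 1 higher, beside 29.3% lower and 22.6% higher of 133 miRNAs. With spike-in scaling 1 member was lower, beside 7 lower and 46 higher of all 133. With normexp 1 was lower and 0 were higher, beside 7 lower and 5 higher of 139. With the brightest probe 2 were lower, beside 19 lower and 28 higher of 126. For moderate against light, miR-181b-5p alone was at least 2-fold lower and 0 members were higher, beside 5.42% lower and 4.82% higher of 166. With spike-in scaling the sign of miR-181b-5p turned (0.14). Then 3 members were at least 2-fold higher, beside 125 of all 166 miRNAs, and the median of those measured on both arrays was 1.59. These comparisons share arrays with one another, and the same severe array enters each of the severe differences.

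**Figure D3:**
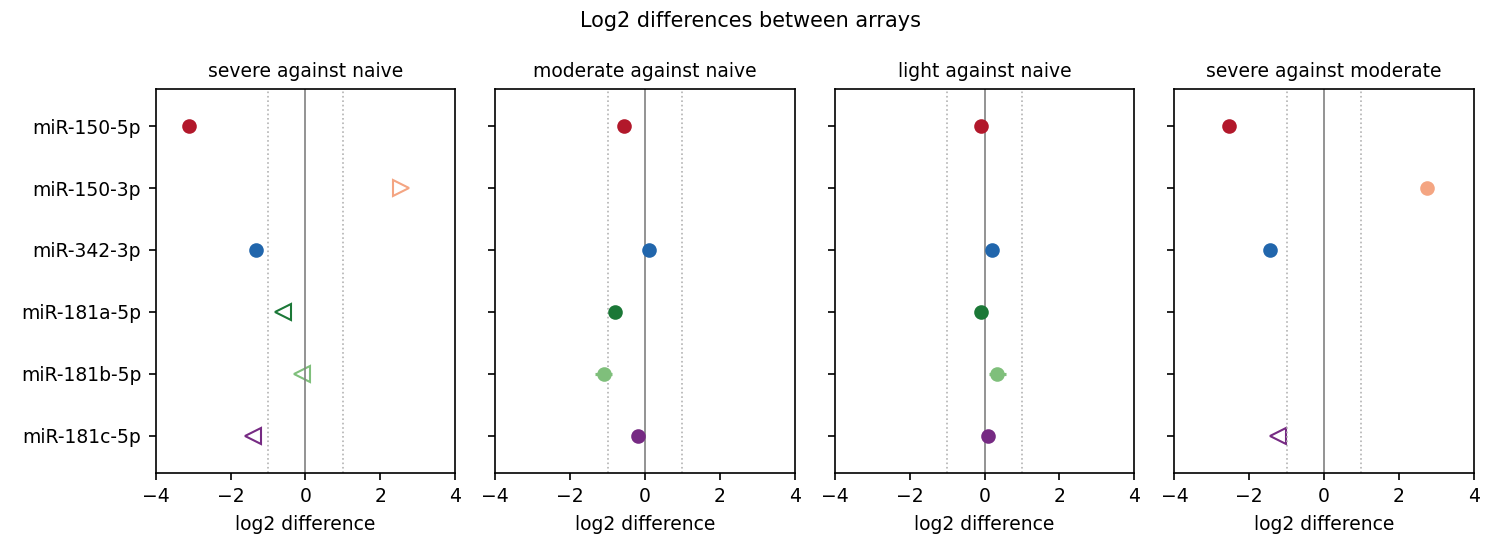
Log2 difference of the 6 members for severe against naive, moderate against naive, light against naive and severe against moderate. Filled points are differences measured on both arrays with bars of 2 standard errors over spots, open triangles are bounds pointing in their direction, and dotted lines mark 2-fold. miR-150-5p stands at −3.11 and −2.54 on the severe array against naive and moderate, while miR-150-3p stands at 2.55 as a bound and at 2.76.

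**Figure D4:**
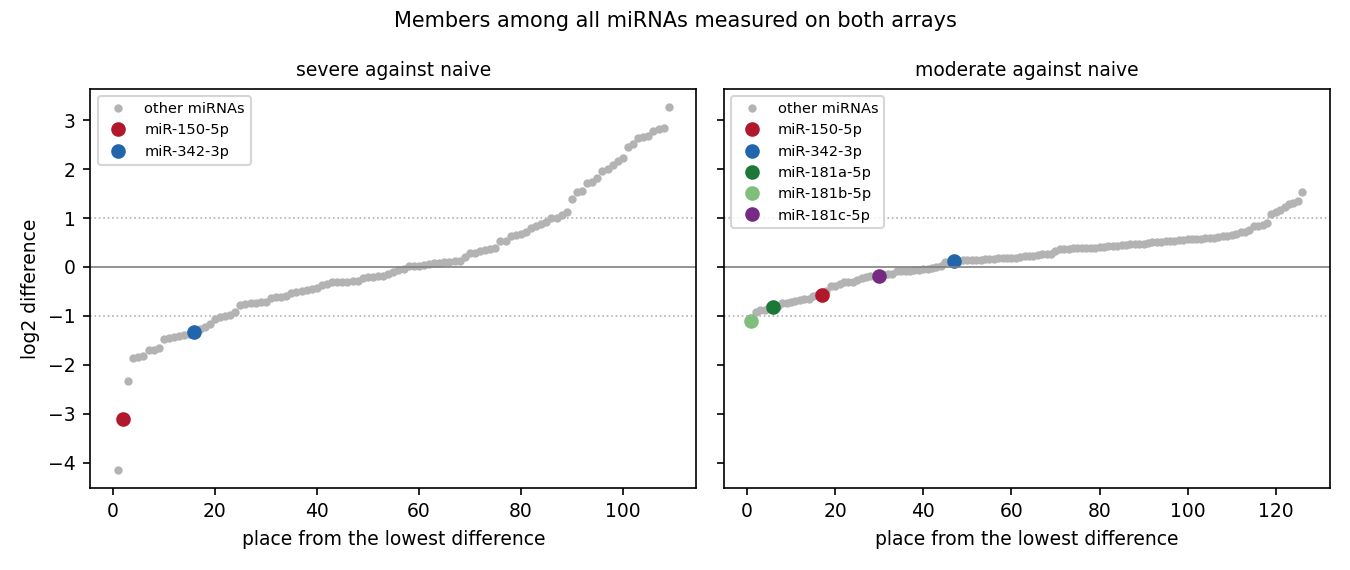
Log2 differences of all miRNAs measured on both arrays, sorted from the lowest, for severe against naive (109 miRNAs) and moderate against naive (126 miRNAs), with members in colour and 2-fold as dotted lines. miR-150-5p is second lowest on the severe array, miR-342-3p is in place 16, and on the moderate array miR-181b-5p is lowest at −1.11.

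Of other leukocyte miRNAs, 5 of 6 listed names were on the array, and 0 of the 5 passed 2-fold between the severe and naive arrays. Over all 137 miRNAs of that comparison, 18.2% were lower and 24.1% higher past 2-fold. Against the light array 3 of the 5 were at least 2-fold lower on the severe array, beside 29.3% of 133 miRNAs. These were miR-223-3p (log2 −1.40), miR-142-5p (−1.37) and miR-146a-5p (−1.08). Against the moderate array 1 was, miR-223-3p (−1.55), beside 17.8% of 169 miRNAs. A value below 2-fold in 1 comparison thus does not set this list apart from the members, and the difference between the lists was not tested. miR-223-3p, a miRNA of granulocytes and monocytes, read 2161 ± 18.4 units on the severe array and 6534 ± 36.1 units on the naive array, log2 −0.91 ± 0.01 after scaling. miR-142-3p, made in all blood cell lineages, read 328 ± 2.14 units on the severe array and 516 ± 4.74 units on the naive array, log2 0.03 ± 0.02. miR-142-5p and the innate-signalling brake miR-146a-5p had log2 differences of −0.64 ± 0.03 and −0.44 ± 0.03, whereas miR-146b-5p was at least 1.60-fold lower. The summed scaled signal of this list was 6.46 on the severe array against 11.3 for naive, 16.2 for light and 16.6 for moderate, and that of the members was 0.454 on the severe array and 1.53, 1.59 and 1.30 on the others in the same order.

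**Figure D5:**
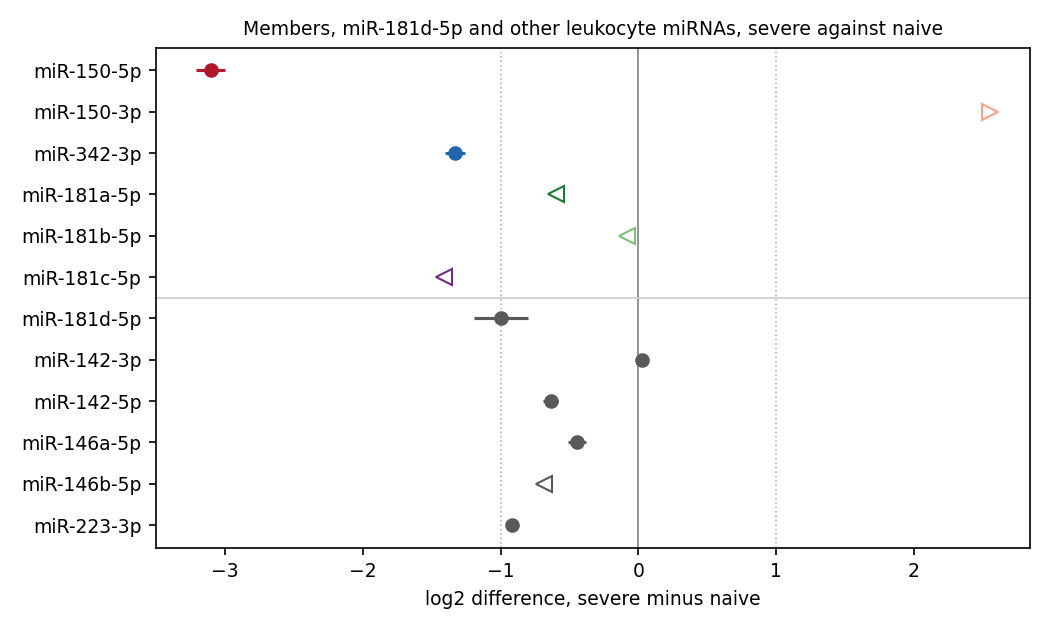
Log2 difference of severe minus naive for the 6 members, miR-181d-5p and the 5 other leukocyte miRNAs on the array, with filled points for values measured on both arrays (bars of 2 standard errors over spots) and open triangles for bounds. Among values measured on both arrays miR-150-5p at −3.11 is the lowest and miR-142-3p lies at 0.03. The upward bound of miR-150-3p (2.55) lies above all of these values, while the downward bounds leave the place of the others unknown.

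Markers of other cells also differed on the severe array, and their part in the members' values was not tested. Of the red cell and platelet list, with 6 of 7 names on the array, miR-144-3p was 3.53-fold higher than naive and miR-144-5p at least 3.91-fold higher, while miR-451-5p and miR-16-5p stood at −0.30 and −0.71, miR-126a-3p at −0.98, and miR-191a-5p was not measured on either array. The summed scaled signal of this list was 41.4 on the severe array against 52.7 for naive, 68.0 for light and 58.0 for moderate. Of the 4 muscle markers, miR-133b-3p was 17.6-fold lower and miR-1-3p at least 5.08-fold lower, and their summed scaled signal was 0.0948 on the severe array against 1.88 for naive, 1.18 for light and 3.60 for moderate. The hepatocyte miRNA miR-122-5p stood at −0.75, and its list summed to 1.04 on the severe array against 1.73 for naive, 0.372 for light and 1.05 for moderate. The geometric mean of the spike-ins dmr_285 and dmr_31a on the severe array was 0.620 times that of the naive array. The spike-ins differed from each other there, with dmr_285 at 0.788 and dmr_31a at 0.488 times naive, so the spike-in scaling of the severe array is uncertain.

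The profiles most like the members' were sought among the 104 miRNAs measured on all 4 arrays, by the Euclidean distance over the 4 arrays between log2 scaled signals centred on their mean. Only miR-150-5p and miR-342-3p were measured on all 4. The nearest to miR-150-5p were miR-423-5p, miR-328a-3p and miR-103-3p, at distances of 0.777, 0.971 and 1.003, beside a median distance of 2.35 over all 103 other miRNAs. Each of the 3 was lowest on the severe array, at −1.63, −1.34 and −1.34 from its own mean, against −2.17 for miR-150-5p. The nearest to miR-342-3p were miR-26a-5p, miR-18a-5p and miR-326-3p, at 0.194, 0.240 and 0.263, beside a median of 1.06. Each distance rests on 4 arrays, and the severe array is the lowest point of each of these profiles.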

How the data were processed

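RNA of serum exosomes from 4 groups, named by the sample titles, was measured on 1-colour Agilent rat miRNA arrays (design 046066), 1 array per group. The labels' labelling protocol describes amplified cRNA, a messenger RNA procedure, an inconsistency left as it is. The deposited intensity of each spot is, per the file headers, a product of Agilent Feature Extraction 10.7.3.1, background-subtracted and spatially detrended, with no scaling between arrays. Version 9.1 is the one given in the submitters' processing notes. The deposited files also hold flags per spot and, per miRNA, a detection call and a total intensity set to 0.1 where undetected. The series value table gives that total intensity for 102 miRNAs, 2 of them members, within 0.0424%.

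From these values, outlier spots were left out (386 to 525 of 14380 per array; 0 spots were saturated), spots were averaged per probe, probes were summed per miRNA, and each array was divided by the 75th percentile of the 111 miRNAs that every array detected (666 units for naive, 356 for light, 954 for moderate and 415 for severe). The median coefficient of variation between spots was 4.80% to 5.87%. The number of arrays limits the precision, and no test was possible. Differences were read against 2-fold, with bounds against the floor. Of 11 other processing settings 10 were run, with Python 3.11.15, pandas 2.3.3 and limma 3.58.1 (normexp on the median spot signal, offset 50, as the files hold no mean spot signal). The spike-ins used were dmr_285 and dmr_31a. The calculation was tested on simulated data. Named miRNAs are the members, the listed relatives, other leukocyte miRNAs and markers of other cells, and the 3 nearest profiles. The arms of miR-652, miR-328a and let-7d are named as examples only. The members and lists were chosen with earlier results of these data known. miR-181a-3p, miR-155-5p and miR-486 had no match on the array under those names. Sequences come from RefSeq (GRCr8).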

Additional observations from a re-analysis of the deposited data

How the results depend on the processing

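With normexp, 1 member was at least 2-fold lower and 0 higher for severe against naive, 0 were lower for moderate against naive, and 0 were lower for severe against moderate. In the series value table, which holds 2 members and not miR-150-3p, 0 were higher for severe against naive, 0 higher for severe against moderate and 0 lower for moderate against naive, by the smaller number of miRNAs. For moderate against naive, 0 members were lower without scaling, 0 with spike-in scaling and 2 with quantile normalization. For light against naive, 1 was lower without scaling and 2 with spike-in scaling. Beyond these, the member counts of the 4 comparisons stayed within 1.5 times, with 4 lower for severe against naive without scaling, where miR-181a-5p was added. For severe against light, 3 lower and 1 higher became 1 and 1 with spike-in scaling, and 1 and 0 with normexp. They became 2 and 1 with the brightest probe, and 2 and 0 in the value table. Over all miRNAs, lower and higher counts there were 39 and 30, against 7 and 46, 7 and 5, 19 and 28, and 16 and 25 in the same order.

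The contrast of the miR-150 arms kept its direction under every alternative that could give it. For severe against naive it was −5.21 with quantile normalization, −2.38 with normexp, −6.64 with the scanner software's total signal and −4.86 with the brightest probe. For severe against moderate it was −5.65, −2.19, −5.91 and, as a bound, −5.05 under the same settings. miR-181b-5p for moderate against light reversed, to 0.14 with spike-in scaling. Either scaling divides an array by 1 factor, so all miRNAs measured on both arrays shifted alike, their median from −0.01 to 1.59. Why the 2 scalings differ was not tested. miR-150-5p for severe against naive ranged from −3.79 (no scaling) to −1.47 (normexp), and miR-342-3p from −2.01 to −0.73 under the same settings. Over all miRNAs, higher and lower counts for severe against naive were 33 and 25, against 23 and 53 without scaling and 15 and 5 with normexp. For severe against moderate they were 30 and 30, against 17 and 102 without scaling, 24 and 73 with spike-ins and 30 and 8 with normexp. For moderate against naive they were 9 and 2, against 48 and 1 without scaling and 70 and 0 with spike-ins, and for light against naive 2 and 1, against 0 and 34, and 0 and 35. Without scaling, the median of all miRNAs moved to −0.63 for light, 0.74 for moderate and −0.79 for severe against naive. Over the 14 called differences of single members, 111 of 129 alternative values kept the call and 128 kept the sign. Alternatives that gave no value, or a bound on the wrong side of equality, were left out of this tally. The tally can therefore overstate how well calls and signs held.

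The 75th percentile over all miRNAs was below 0 on the light array (−0.739), so that scaling was not run. No paired analysis was possible because each group has 1 array. On the severe array, signal near the floor limits miR-181a-5p and miR-181b-5p to bounds.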
